A study of Mus musculus with 6 samples.

Results

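The gene set examined here consists of 10 mouse genes, most of them known from the formative epiblast, namely Otx2, Crxos, Fgf5, Pou3f1, Zic2, Zic5, Sall2, Cldn6, Tead2 and Wnt8a, out of 18193 genes with a named probe set. Expression was measured on Affymetrix arrays in 3 haploid and 3 diploid embryonic stem (ES) cell samples, with 1 array for each. The haploid samples were HAP1 at passage 24 and HAP2 at passage 21, both of strain F1 CBAxB6, and HTG1 at passage 11, of a background labelled mixed transgenic. The diploid samples were described as a male ES cell line. Their strain was 129Sv for diploid replicates 1 and 2 and 129 for diploid replicate 3. Strain therefore cannot be told apart from ploidy, and the passage of the diploid samples is not given in the labels. Between HTG1 and the other haploid lines, strain and passage cannot be told apart from the line. All 6 cultures were kept in 2i medium, in which MEK and GSK3 are inhibited, and RNA was taken on day 2 after passaging. The sources used here do not say what the transgene of HTG1 is or what share of the cells was still haploid at harvest. The diploid arrays are labelled as biological replicates, without saying whether they are separate lines.

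The 10 genes were chosen by a rule that knew the measured values of these arrays, namely the differences between haploid and diploid samples and between HTG1 and the other haploid lines. Differences of the 10 genes are therefore given as descriptions, with a standard error and no p-value. Each gene was read from its probe set with the highest mean over the 6 arrays. All 10 genes had such a probe set, none was lost to a filter on low values, and 15 probe sets named the 10 genes in all. Values are log2 units after RMA, a method that brings arrays to a common distribution, so they do not show a change in total RNA per cell. In such bulk samples fewer cells of a type and less RNA per cell cannot be told apart.

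The formative state lies between the naive state of the early epiblast, which 2i medium maintains, and the primed state that responds to signals for germ layers. Release from MEK inhibition lets fibroblast growth factor and ERK signalling act, naive factors decline, and Otx2 directs Pou5f1 protein to new enhancers near genes such as Fgf5 and Pou3f1. Otx2 is a homeodomain transcription factor that is already present in ES cells before this transition. Crxos is a homeobox gene that lies beside Crx, a relative of Otx2 known from photoreceptors, and is known from preimplantation embryos and ES cells rather than as a formative marker. The array medians were 6.31 to 6.33 in this series, and 7 ES cell markers (Pou5f1, Sox2, Nanog, Zfp42, Sall4, Utf1 and Tdgf1) stood between 10.96 and 14.01 on all 6 arrays. The marker Fut4 stood between 5.36 and 5.83.

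Promoter windows of Otx2 and Crxos are shown because these 2 genes had the lowest differences of HTG1 from the other haploid lines among the 10. The windows run from 250 bases before to 50 bases after a start site and come from RefSeq, build GRCm38.p6. For 7 of the 10 genes (Otx2, Crxos, Fgf5, Zic5, Sall2, Cldn6 and Tead2) 13 windows were used. No window of Pou3f1, Zic2 or Wnt8a was used, so the motif counts and the GC range below do not cover these genes. Capitals mark GGATTA, the core bound by OTX and CRX homeodomains. The Otx2 window lies at chr14:48665060-48665359 on the minus strand. The Crxos window lies at chr7:15882367-15882666 on the plus strand and is the one nearest to Crx.
Otx2: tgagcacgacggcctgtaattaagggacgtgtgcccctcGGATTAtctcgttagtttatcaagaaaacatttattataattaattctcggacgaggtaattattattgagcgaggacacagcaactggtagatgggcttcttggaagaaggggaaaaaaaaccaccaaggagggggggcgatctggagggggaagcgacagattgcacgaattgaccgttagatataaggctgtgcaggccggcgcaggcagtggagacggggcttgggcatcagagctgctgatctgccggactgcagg
Crxos: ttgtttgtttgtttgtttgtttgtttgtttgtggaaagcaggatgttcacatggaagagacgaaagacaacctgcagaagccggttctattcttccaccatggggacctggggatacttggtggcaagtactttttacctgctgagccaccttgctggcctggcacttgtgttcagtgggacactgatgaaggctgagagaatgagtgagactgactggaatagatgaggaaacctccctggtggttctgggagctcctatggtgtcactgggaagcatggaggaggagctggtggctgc

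GGATTA or its reverse complement TAATCC was present in 1 of the 13 windows, that of Otx2 shown above, with its first base at position -211 from the start site. The other 3 Otx2 windows and all 3 Crxos windows did not hold these letters, against 7.06% of all 32851 windows that did. GGAATG or CATTCC, the core bound by TEAD factors, was present in the Zic5 window at -165 and in the Cldn6 window at -1, and in 14.7% of all windows. ATGCAAAT or ATTTGCAT, the octamer bound by POU factors, was present in none of the 13 windows and in 1.74% of all windows. The searched motifs did not overlap in these windows. The GC content ranged from 30.3% in a Sall2 window to 68.3% in the Fgf5 window, with a median of 52.7% over all windows.

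Crxos had the widest range of the 10 genes. It stood at 4.69 in HTG1, 9.98 in HAP1 and 10.12 in HAP2, against 12.04, 10.68 and 11.24 in diploid replicates 1 to 3. HTG1 lay far below the other 5 arrays, and HAP1 and HAP2 also lay below every diploid array. The HTG1 value of 4.69 is below 4.80, the smallest lower quartile of any array, so its distance from the other arrays is a bound. HTG1 was at least 38.2-fold lower than the mean of HAP1 and HAP2, a log2 difference of -5.25 with values raised to 4.80, against -5.36 ± 0.50 as measured (SE of the 3-group fit, n = 1 and 2). Both ways Crxos had the lowest difference among the 18193 genes, each read from its probe set with the highest mean. HAP1 and HAP2 minus the diploid mean was -1.27 (log2), or 2.41-fold lower.

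The second Crxos probe set gave the same order with smaller differences. It read 5.89 in HTG1, 7.11 in HAP1 and 7.14 in HAP2, against 8.83, 7.68 and 8.25 in the diploid samples. HTG1 was lowest and the diploid samples highest here too, with HTG1 minus HAP1 and HAP2 at -1.23 and HAP1 and HAP2 minus diploid at -1.13 (log2). The mean of both probe sets differed by -3.30 between HTG1 and the HAP lines. Crx is the nearest gene to Crxos in the RefSeq order, with 2662 bases between the Crx start site and the first Crxos start site on the opposite strand. Its value was 5.61 in HTG1, 5.61 in HAP1 and 5.54 in HAP2, against 5.79, 5.62 and 6.15 in the diploid samples. All Crx values were below the array medians, and those of its second probe set (3.27 to 3.85) below 4.80, so little signal was there that could have been lower in HTG1.

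**Figure D1:**
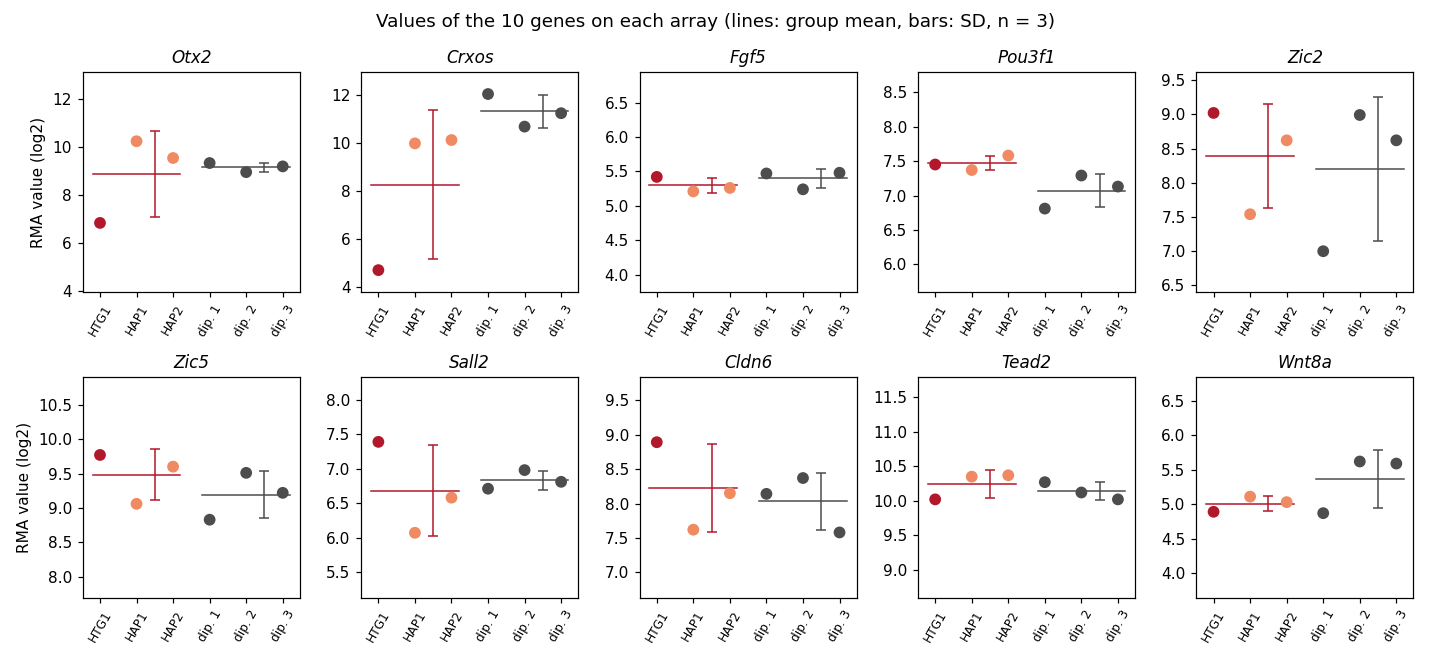
RMA values (log2) of the 10 genes on each of the 6 arrays, with HTG1 in dark red, HAP1 and HAP2 in orange and the diploid arrays (dip.) in grey; lines are group means and bars are SD (n = 3), and the vertical scale differs between panels. HTG1 stood at 4.69 for Crxos and 6.84 for Otx2, under all other arrays, while Fgf5 stayed between 5.21 and 5.48.

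Otx2 was low in HTG1 and not in the other haploid lines. It stood at 6.84 in HTG1, 10.25 in HAP1 and 9.55 in HAP2, against 9.34, 8.96 and 9.20 in diploid replicates 1 to 3. HTG1 was the lowest array, while HAP1 and HAP2 were above every diploid array. HTG1 minus HAP1 and HAP2 was -3.06 ± 0.31 (log2, SE), or 8.33-fold lower, at rank 5 from the lowest among the 18193 genes. HAP1 and HAP2 together were 0.74 higher than the diploid mean, or 1.66-fold. The comparison of all 3 haploid with 3 diploid samples gave -0.28 ± 0.79 (log2, SE, n = 3 each). This mean joins values on both sides of the diploid range, and without HTG1 it turned to 0.74.

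Of the 10 genes, HTG1 lay over 1 (log2) outside the range of the other 5 arrays for 2, Otx2 and Crxos, where 0.781% of all genes did. The same 2 genes were past an adjusted p of 0.05 in the limma fit of HTG1 against HAP1 and HAP2, where 0.374% of all genes were (44 higher and 24 lower in HTG1, but 11 higher and 15 lower among genes above the median level). That fit takes its spread from the HAP and diploid arrays and assumes that HTG1 varies like them. Nothing is read from these counts, or from the ranks of Crxos and Otx2 given above, since the choice of the 10 genes used this contrast. Without diploid replicate 3 neither gene was past the threshold, and Otx2 was not without diploid replicate 2.

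**Figure D2:**
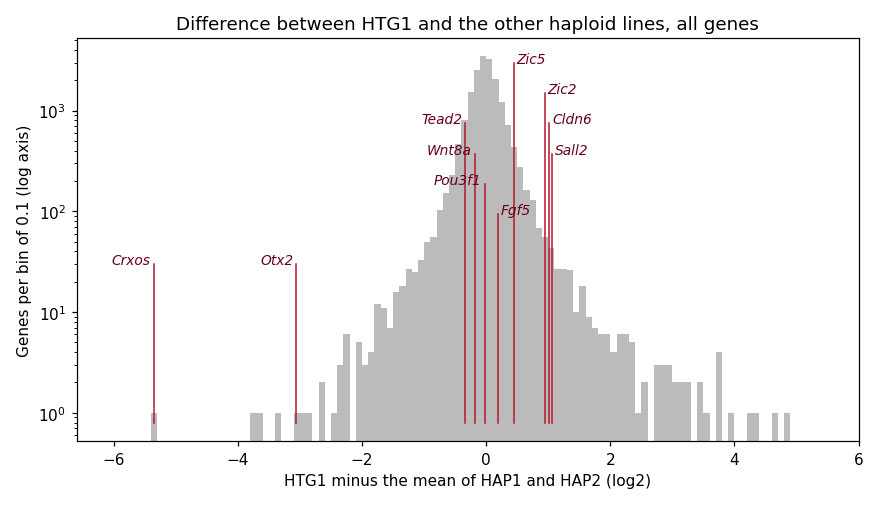
Histogram of the difference of HTG1 minus the mean of HAP1 and HAP2 (log2, horizontal axis) for 18193 genes, with the number of genes per bin on a log axis and a red line for each of the 10 genes (line heights only separate the labels). Crxos at -5.36 (its HTG1 value is below 4.80) and Otx2 at -3.06 lay in the far lower tail and the other 8 genes between -0.34 and 1.06.

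The signalling molecules and the POU factor of the set showed small differences. Fgf5, the secreted growth factor used as a marker of the formative and primed epiblast, read 5.42 in HTG1, 5.21 in HAP1 and 5.26 in HAP2, against 5.47, 5.24 and 5.48 in the diploid samples. All values of Fgf5 were under the array medians, the groups overlapped, and the haploid minus diploid difference was -0.10 ± 0.11 (log2, SE). Wnt8a, a Wnt ligand of the posterior epiblast, read 4.89 in HTG1, 5.11 in HAP1 and 5.03 in HAP2, against 4.87, 5.62 and 5.59 in the diploid samples. Its diploid replicate 1 was as low as the haploid samples, so the groups overlapped, with a difference of -0.35 ± 0.21. All values of Wnt8a were also under the array medians. Without diploid replicate 1 the Wnt8a difference was -0.59 and Wnt8a was among the genes past the limma threshold. In the other 12 alternatives it was not.

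Pou3f1, the POU domain factor also called Oct6, was slightly higher in the haploid samples. It read 7.45 in HTG1, 7.37 in HAP1 and 7.58 in HAP2, against 6.81, 7.29 and 7.13 in the diploid samples. The groups did not overlap, the difference was 0.40 ± 0.14 (log2, SE), or 1.32-fold, and HTG1 stood between HAP1 and HAP2. The second Pou3f1 probe set gave 0.59, but with diploid replicate 2 at 7.49, above the 3 haploid values of 7.38, 7.40 and 7.36 (HTG1, HAP1, HAP2), so the groups overlapped there.

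Zic2 and Zic5, zinc finger transcription factors with a neural role later in development, varied within both groups. Zic2 read 9.02 in HTG1, 7.54 in HAP1 and 8.62 in HAP2, against 7.00, 8.99 and 8.62 in the diploid samples. Each group held a low array, HAP1 and diploid replicate 1, and the Zic2 difference was 0.19 ± 0.57 (log2, SE). Zic5 read 9.77 in HTG1, 9.06 in HAP1 and 9.60 in HAP2, against 8.83, 9.51 and 9.22 in the diploid samples. HAP1 was again the lowest haploid array and diploid replicate 1 the lowest diploid array, and the Zic5 difference was 0.29 ± 0.23. Zic2 and Zic5 lie near each other on chromosome 14, with 1 gene model, the long noncoding RNA 2610035F20Rik, between them in the RefSeq order. The other Zic5 probe sets differed by 0.05 and 0.00 between haploid and diploid samples.

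Sall2, a zinc finger factor of the spalt family, and Cldn6, a claudin of tight junctions in early epithelia, were highest in HTG1. Sall2 read 7.39 in HTG1, 6.07 in HAP1 and 6.58 in HAP2, against 6.71, 6.98 and 6.81 in the diploid samples. The diploid values lay between those of HTG1 and of the HAP lines, so the haploid minus diploid mean of -0.15 ± 0.30 (log2, SE) describes neither. Cldn6 read 8.89 in HTG1, 7.62 in HAP1 and 8.15 in HAP2, against 8.14, 8.37 and 7.58 in the diploid samples. HTG1 was the highest array, HAP1 and HAP2 lay within the diploid range, and the difference was 0.19 ± 0.34. HTG1 minus HAP1 and HAP2 was 1.06 ± 0.24 for Sall2 and 1.01 ± 0.36 for Cldn6. With Zic2 and Zic5 (0.94 ± 0.83 and 0.44 ± 0.33), 4 of the 10 genes had their highest value in HTG1. Another 3 (Otx2, Crxos and Tead2) had their lowest there. The shares over all genes were 17.3% and 21.7%, and nothing is read from these counts because the choice of the 10 used this contrast. The Zic2 values of HTG1 (9.02) and diploid replicate 2 (8.99) were close, and Tead2 stood at 10.02 in both HTG1 and diploid replicate 3.

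Tead2, a DNA-binding partner of the coactivator YAP that is prominent in early embryos, had the narrowest range over the 6 arrays after Fgf5. It read 10.02 in HTG1, 10.35 in HAP1 and 10.37 in HAP2, against 10.27, 10.12 and 10.02 in the diploid samples. The groups overlapped and the difference was 0.10 ± 0.13 (log2, SE).

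Between haploid and diploid samples, 9 of the 10 genes differed by less than 0.5 (log2), Crxos being the exception at -3.06 ± 1.38 (means 8.26 ± 3.10 and 11.32 ± 0.69, SD, n = 3 each). None of the 10 genes was past an adjusted p of 0.05 in limma, where 14.9% of all genes were (1441 higher and 1266 lower in the haploid samples, but 1234 higher and 1457 lower with quantile normalization repeated). At an unadjusted p under 0.05 in limma the number was 1 of 10, Pou3f1, beside 31.2% of all genes. The 3 haploid and 3 diploid values did not overlap for 2 of the 10, Crxos and Pou3f1, where 37.9% of all genes had groups that did not overlap. The median difference of the 10 genes was 0.00 and that of all genes -0.03. The median size of the difference, without its sign, was 0.24 for the 10 genes and 0.20 for all genes. Between HTG1 and the HAP lines it was 0.69 for the 10 genes and 0.15 for all genes. Nothing is read from these medians, since the choice of the 10 genes used both contrasts. Of the 10 genes, 4 lie on chromosome 14 (Otx2, Sall2, Zic2 and Zic5) and 2 on chromosome 7 (Crxos and Tead2). The median shifts of the chromosomes that carry the 10 genes lay between -0.05 and 0.05 (log2) on every array. Some other chromosomes had larger shifts. Chromosome X lay at -0.392 to -0.327 in the diploid and 0.342 to 0.394 in the haploid samples. Chromosome 8 lay at 0.172 to 0.181 in the diploid and -0.191 to -0.179 in the haploid samples. Chromosome 11 was likewise higher in the diploid samples, and chromosome 6 lay at 0.299 in diploid replicate 1 only.

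**Figure D3:**
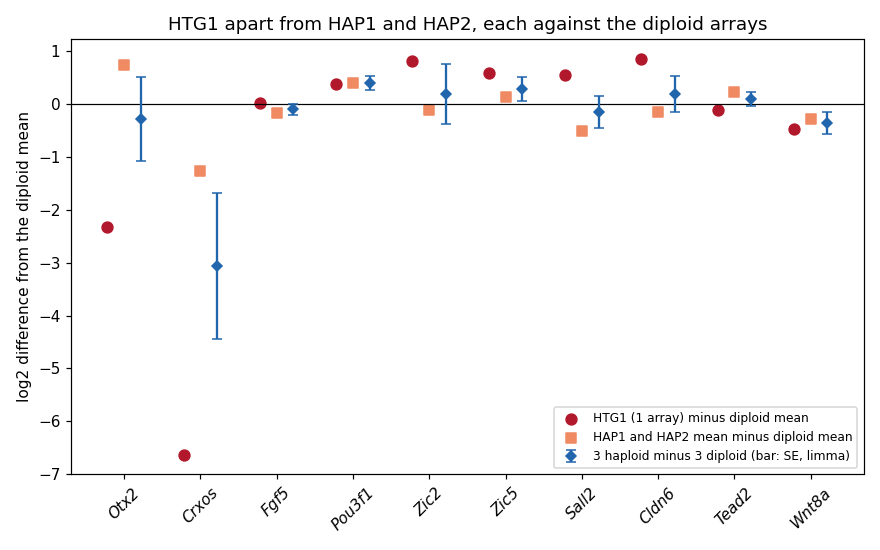
Difference from the diploid mean (log2) for each of the 10 genes, for HTG1 alone (circles, 1 array), for the mean of HAP1 and HAP2 (squares) and for all 3 haploid samples (diamonds, bars are SE of the limma fit). For Otx2 the circle at -2.32 and the square at 0.74 lay on opposite sides of 0, and for Crxos both were negative, at -6.63 (-6.53 with the dim HTG1 value raised to 4.80, a bound) and -1.27.

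**Figure D4:**
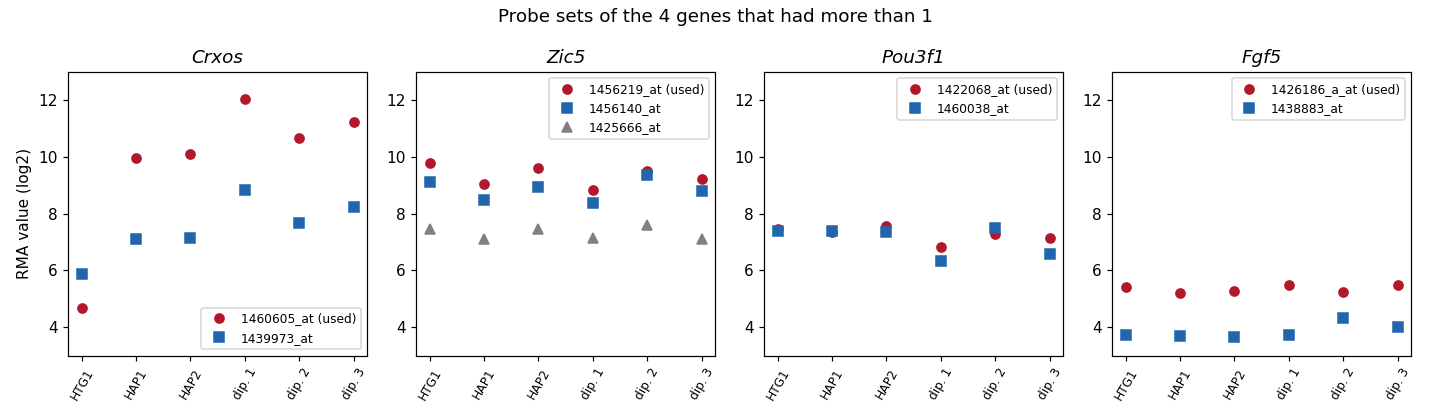
RMA values (log2) on each array for the probe sets of Crxos, Zic5, Pou3f1 and Fgf5, the 4 genes with more than 1 probe set. In both Crxos probe sets HTG1 was lowest, at 4.69 and 5.89, and the sizes differed.

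The genes whose values followed Otx2 most closely were ranked by Pearson's r over the 6 arrays among 1766 genes outside the set with a mean above the median of all genes and a range of at least 1 (log2). All points share the same 6 arrays, and 1 array, HTG1, sets much of each coefficient. Spats1 (r = 0.9832), Sorl1, a sorting receptor (0.976), and Smad3, a transducer of activin and TGF-beta signals (0.967), were closest to Otx2. Sorl1 stood at 10.21 in HTG1, 11.87 in HAP1 and 11.84 in HAP2, against 11.49, 11.42 and 11.32 in the diploid samples. Like Otx2, it was lowest in HTG1 and above the diploid samples in HAP1 and HAP2. Closest to Crxos were 4933404O12Rik (r = 0.9878), Lrriq4 (0.9853) and Fscn1, an actin-bundling protein (0.9849). Fscn1 stood at 11.74 in HTG1, 13.13 in HAP1 and 13.06 in HAP2, against 13.72, 13.60 and 13.59 in the diploid samples, with HTG1 lowest, the HAP lines next and the diploid samples highest, as for Crxos, over a smaller range. Otx2 and Crxos themselves had r = 0.8237.

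Other formative genes moved in both directions between haploid and diploid samples. Of 29 measured genes from a list of formative genes outside the set, 5 rose and 6 fell in the haploid samples by limma, and 18 did not pass. Over all genes 14.9% passed in this comparison, the share to set beside this and each later list count. In a fit of the 9096 genes above the median level, 21 of the list among them, 2413 passed, which is a larger share. The median difference of the list was 0.00 (log2). Sox4, a transcription factor of early progenitors, read 7.77 in HTG1, 8.57 in HAP1 and 8.48 in HAP2, against 9.64, 10.37 and 10.19 in the diploid samples. Every haploid value of Sox4 was lower, and the gene fell 3.47-fold (log2 -1.79 ± 0.26, SE, limma adjusted p = 0.00744). Averaging the Sox4 probe sets gave -0.94. Dnmt3a, a de novo DNA methyltransferase, fell by 1.51 ± 0.16 (limma adjusted p = 0.00319), or by 0.82 when its probe sets were averaged. Lin28a, an RNA-binding protein that blocks let-7 maturation, fell by 1.49 ± 0.28 (limma adjusted p = 0.0164), and Foxd3, a forkhead factor, rose by 1.28 ± 0.26 (limma adjusted p = 0.0211). Neither Lin28a (0.0648 and 0.0716) nor Foxd3 (0.0516 and 0.0552) passed without diploid replicate 2 or 3, as limma adjusted p.

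Foxp1, Prdm1 and Krt18 also fell, by 1.14, 0.91 and 1.23 (log2), and Nodal, Tcf7l1, Hes6 and Igfbp2 rose by 0.64, 0.54, 0.46 and 0.43. These 7 were named after their values were seen. Foxp1 and Prdm1 passed in every alternative run, and the other 5 did not pass without diploid replicate 2 or 3, among others. The list count was 4, all lower, without diploid replicate 2 or without diploid replicate 3, and 7 without HAP2. Without HTG1 it was 9, with 1 higher and 8 lower, and with quantile normalization repeated or chromosome shifts subtracted it was 3 higher and 6 lower. In HTG1 against HAP1 and HAP2, 0 of the 29 passed in limma and 10 had an unadjusted p under 0.05. The epithelial factor Grhl2 had the widest difference there, at 9.77 in HTG1, 7.39 in HAP1 and 7.67 in HAP2, against 7.24, 8.26 and 8.12 in the diploid samples (HTG1 minus HAP 2.24 ± 0.41, limma adjusted p = 0.143). Few of all genes passed between HTG1 and the HAP lines, as given above. Nothing is read from the list counts of that contrast. The share of all genes with an unadjusted p under 0.05 was not worked out for it.

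**Figure D5:**
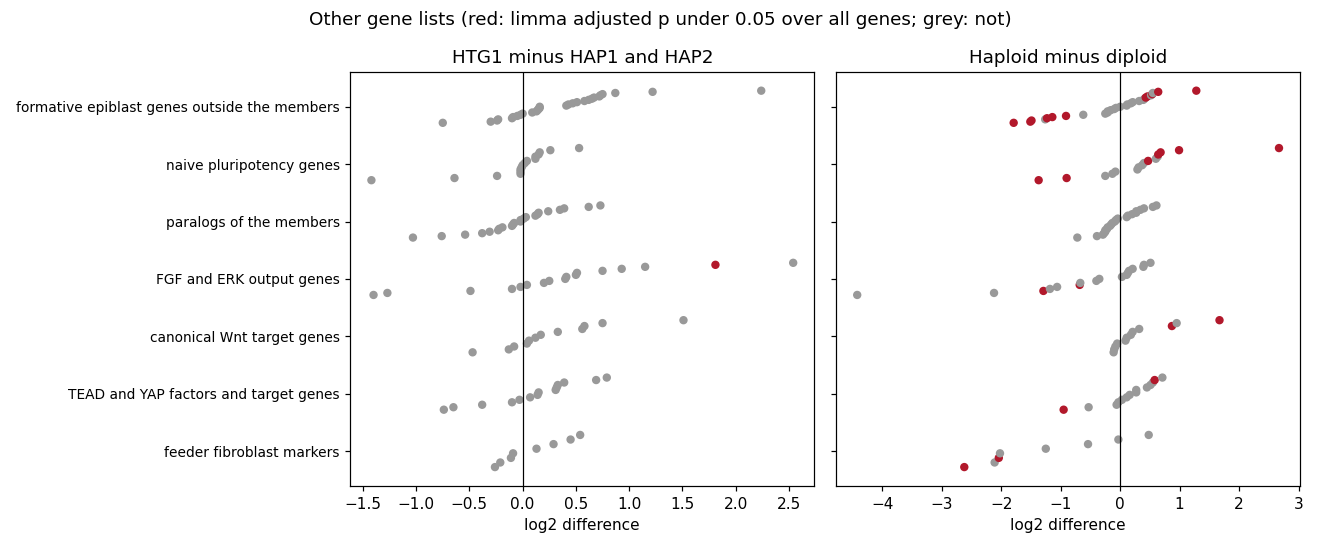
Differences (log2, horizontal axis) of the genes of 7 other lists, in HTG1 against HAP1 and HAP2 (left) and in haploid against diploid samples (right), with genes past a limma adjusted p of 0.05 in red. The formative list has red points on both sides of 0 on the right, and Dusp4 at 1.81 is the only red point on the left.

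The paralogs of the 10 genes gave no call. Between haploid and diploid samples 14.9% of all genes passed, and 31.2% had an unadjusted p under 0.05 (limma). Of 23 measured paralogs, such as Otx1, Sall4, Tead1 and Cldn3, 0 passed in limma between haploid and diploid samples, with 6 at an unadjusted p under 0.05, and 0 passed between HTG1 and the HAP lines, with 5. Otx1 read 5.30 in HTG1, 5.52 in HAP1 and 5.70 in HAP2, against 5.07, 5.17 and 5.26 in the diploid samples, a difference of 0.34 ± 0.13 (log2, SE, limma adjusted p = 0.119). Sall4, the spalt family member needed for pluripotency, differed by -0.09 ± 0.10 (limma adjusted p = 0.572). Fgf4, the growth factor through which ES cells activate ERK, differed by 0.40 ± 0.11 (limma adjusted p = 0.0528).

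Of 16 naive genes 5 rose and 2 fell in the haploid samples, with a median difference of 0.39 (log2), and 0 passed in HTG1 against the HAP lines (limma), with 3 at an unadjusted p under 0.05. Prdm14, a repressor of FGF signalling and DNA methylation in naive cells, read 11.23 in HTG1, 11.16 in HAP1 and 11.01 in HAP2, against 10.16, 10.15 and 10.10 in the diploid samples. HTG1 was level with the HAP lines for Prdm14, and the gene rose by 0.99 ± 0.10 (limma adjusted p = 0.00232). Dppa3, a maternal factor also called Stella, read 10.85 in HTG1, 12.51 in HAP1 and 12.03 in HAP2, against 9.77, 8.86 and 8.75 in the diploid samples, and rose by 2.67 ± 0.45 (limma adjusted p = 0.0116, and 0.0503 and 0.0572 without diploid replicates 2 and 3). Nr5a2, a nuclear receptor, fell by 1.37 ± 0.10 and Pecam1, a surface adhesion molecule, by 0.90 ± 0.12 (limma adjusted p = 0.0013 and 0.00595). Averaged over its probe sets Nr5a2 fell by 0.32, and with chromosome shifts subtracted Pecam1 fell by 0.59. Of the rises, those of Klf4 and Prdm14 passed without diploid replicate 2 and without diploid replicate 3, and those of Nanog, Klf5 and Dppa3 did not. Klf5 (0.64) also did not pass when its probe sets were averaged (0.24, limma adjusted p = 0.152).

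Among 17 measured output genes of FGF and ERK signalling, which MEK inhibition dampens, 2 fell and none rose in the haploid samples, and 1 rose in HTG1 against the HAP lines. Between haploid and diploid samples 14.9% of all genes passed, close to the share of this list. Spred1, a feedback inhibitor, fell by 1.29 ± 0.17 (log2, SE, limma adjusted p = 0.00539). Spred2 fell by 0.68 (limma adjusted p = 0.0359), but by 0.38 when its probe sets were averaged, or when chromosome shifts were subtracted, and did not pass there. It did not pass without diploid replicate 2, diploid replicate 3, HAP1 or HAP2 either. Dusp4, a nuclear phosphatase of ERK, stood at 8.13 in HTG1, 6.28 in HAP1 and 6.35 in HAP2, against 6.29, 6.42 and 6.51 in the diploid samples. HTG1 alone was high, by 1.81 ± 0.15 over the HAP lines (limma adjusted p = 0.0104, and 0.0534 and 0.0536 without diploid replicates 2 and 3). Dusp6, the cytoplasmic ERK phosphatase, stood at 9.13 in HTG1, 7.20 in HAP1 and 5.98 in HAP2, against 8.16, 8.68 and 8.66 in the diploid samples. HTG1 was the highest Dusp6 array and the HAP lines the lowest, with a difference of 2.54 ± 0.49 that did not pass (limma adjusted p = 0.152). Other genes of the list lay the other way without passing, among them Ier3 (-1.40, limma adjusted p = 0.62) and Fos (-1.27, limma adjusted p = 0.863), both lowest in HTG1. Egr1 had the widest haploid minus diploid difference of the list, at -4.42 ± 1.55, without passing (limma adjusted p = 0.101). It stood at 5.95 in HTG1, 6.06 in HAP1 and 5.76 in HAP2, against 6.28, 11.96 and 12.81 in diploid replicates 1 to 3. Fos was likewise lower in diploid replicate 1 (7.90) than in diploid replicates 2 and 3 (10.54 and 10.67). Dusp6, Ier3, Fos and Egr1 were named after their values were seen.

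Of 12 measured canonical Wnt targets 2 rose in the haploid samples, Apcdd1 by 1.67 ± 0.33 and Cdx1 by 0.87 ± 0.10 (limma adjusted p = 0.0202 and 0.00409). The share of all genes that passed was 14.9%, close to that of this list and of the TEAD and YAP list. Omitting HAP2, HTG1, or diploid replicate 2 or 3 ended the Apcdd1 call (limma adjusted p = 0.0506 to 0.0783), and averaging its probe sets gave 1.08. Of 14 measured factors and targets of TEAD and YAP 1 rose, the coactivator Wwtr1 (0.58, limma adjusted p = 0.0494), and 1 fell, the receptor kinase Axl (-0.95, limma adjusted p = 0.0275). Wwtr1 did not pass with quantile normalization repeated or array medians aligned, nor on omission of any 1 array other than HAP1. Averaged over its probe sets Axl differed by -0.30 and did not pass, nor did it without HAP2 or any 1 diploid array. No Wnt target and no TEAD or YAP gene passed between HTG1 and the HAP lines, with 2 of each list at an unadjusted p under 0.05 in limma.

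Markers of other cell types were examined beside these values. The mean level of 8 feeder fibroblast markers was 5.74 to 5.90 (log2) in the haploid samples and 6.66 to 7.97 in the diploid samples, highest in diploid replicate 1. Of these 8, Col1a2 fell by 2.62 and Acta2 by 2.04 (limma adjusted p = 0.00326 and 0.00473). Their differences were -1.89 and -0.93 when their probe sets were averaged. The other 6 did not pass, and not all were lower in the haploid samples, with Thy1 at -0.03 and Twist1 at 0.48. Lox stood at 9.86 in diploid replicate 1, against 6.13 and 5.29 in diploid replicates 2 and 3. The list mean of HTG1 (5.90) lay close to those of HAP1 (5.87) and HAP2 (5.74). The part of fibroblast RNA in the haploid against diploid differences was not tested. One of 8 primitive streak markers rose (Gsc), 1 of 7 neural markers fell (Sox1), 1 of 8 primitive endoderm markers fell (Col4a1), 1 of 7 trophoblast markers rose (Gata3) and 2 of 8 ES cell markers rose (Pou5f1 and Nanog), all by limma. Gsc passed in every alternative run. Sox1 fell by 1.32, or by 0.80 when its probe sets were averaged, and did not pass without diploid replicate 3 or HAP2, nor did Gata3 without diploid replicate 3 or Col4a1 without diploid replicate 2 or with chromosome shifts subtracted. Nanog and Pou5f1 did not pass without diploid replicate 2 or 3, HAP2 or HTG1, nor Pou5f1 without HAP1. None of the markers of these 6 lists passed between HTG1 and the HAP lines, where 5 in all had an unadjusted p under 0.05 in limma.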

How the data were processed

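Total RNA of 6 mouse ES cell samples was hybridised to Affymetrix arrays, 1 per sample. The authors deposited log2 values per probe set. The submitters' processing notes name RMA; the software, its version and its settings are not given in the sources used here. Of 45101 probe sets, 64 controls were left out, 34945 had 1 symbol in the platform annotation, 932 several and 9160 none. Chromosomes and gene order came from RefSeq (GRCm38.p6).

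Groups came from the labels; replicate numbers only name samples. Differences are from limma 3.58.1 in R 4.3.3 (lmFit, eBayes, two-sided, no covariate, no filter), with Benjamini-Hochberg adjustment over 18193 genes. A second fit had 3 groups (HTG1, HAP1 with HAP2, diploid). P-values measure the spread between these arrays; whether the diploid arrays came from separate lines is not stated, and the number of arrays limits precision. The fits were tested on simulated data. From each other list, up to 4 genes that passed with the largest change are named, or the 2 with the highest mean; others are named after their values were seen. The 10 genes, the lists, the tests and this rule were chosen with earlier results of these data known. The alternatives were other normalizations, filters, probe sets and variance models, chromosome shifts, and omission of each array. Listed genes that no single-symbol probe set named were not analysed here.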

Additional observations from a re-analysis of the deposited data

How the results depend on the processing

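The count of genes past the limma threshold between haploid and diploid samples was 2707, with 970 to 2428 when 1 array was left out (970 and 1196 on omission of diploid replicates 3 and 2, and 1429 on omission of HAP2) and 2413 to 3810 under the other alternatives. The 2413 came from the 9096 genes above the median level alone. The majority turned from higher (1441 and 1266) to lower (1234 and 1457) with quantile normalization repeated. For HTG1 against HAP1 and HAP2 it was 68, with 25 to 123 when 1 array was left out (25 and 33 on omission of diploid replicates 3 and 2, and 123 on omission of HAP2), 26 (11 higher and 15 lower) among genes above the median level and 106 with array weights. The count of formative genes was 11, with 4 to 11 when 1 array was left out, and 0 for HTG1, with 0 to 1 (1 without diploid replicate 1). Of the 10 genes, Otx2 turned from -0.28 to 0.01 with array weights and 0.74 without HTG1, Zic2 from 0.19 to between -0.41 and -0.12 in 3 alternatives, Sall2 to 0.15 without HAP1 and Cldn6 to -0.15 without HTG1 and -0.03 without diploid replicate 3. The cause was not tested. The other 6 kept their direction between haploid and diploid samples in every alternative run. Between HTG1 and the HAP lines Otx2 ran from -3.41 to -2.71 and Crxos from -5.43 to -3.30, and Crxos averaged over its probe sets was not past the threshold. No paired analysis was possible because the haploid titles carry line names and no replicate numbers. Leaving out HTG1 leaves no value for the HTG1 comparison. With 3 arrays a group, and 1 for HTG1, small differences are not resolved.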
